A study of Homo sapiens with 4 samples.

Results

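Smad3-only sites are genomic intervals that were called as peaks in the ChIP-seq of LAP-tagged Smad3 after TGFβ-1 and in no other library of the study. They were chosen by their peak calls: each is a peak of the LAP-Smad3 TGFβ-1 list, on chromosomes 1 to 22 or X, that overlapped by 1 bp or more no peak of the other 3 lists. There were 52999 such sites, 85.1% of the 62268 LAP-Smad3 peaks on these chromosomes after TGFβ-1, and the 4 lists held 104156 peaks in all. Of these peaks, 62551 were in the LAP-Smad3 TGFβ-1 list and 26828 in the LAP-Smad2 TGFβ-1 list. The lists labelled LAP-Smad2 untreated and LAP-Smad3 untreated held 11266 and 3511. The share of Smad3-only sites depends on these sizes. The cells were MDA-MB-231, a human breast cancer line that responds to TGFβ with invasion. They carried a bacterial artificial chromosome (BAC) with either the SMAD2 or the SMAD3 gene, tagged at the protein's end with the GFP-containing LAP cassette, and were drug-selected and sorted for GFP as populations. The tagged protein was therefore made in addition to the cells' own Smad2 and Smad3, and was pulled down with an anti-GFP antibody. The 4 conditions were LAP-Smad2 untreated, LAP-Smad3 untreated, LAP-Smad2 with 10 ng/mL TGFβ-1 for 2 h and LAP-Smad3 with the same treatment, with 1 library each.

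No difference between conditions therefore has a replicate check, and no p-value is given. The intervals are Wilson 95% intervals, and those of differences were built from them. Both cover counting error only and treat sites as independent, which neighbouring sites and copies of a repeat are not. A difference is given with the number of chromosomes, of 23, on which it had the same direction. The study's methods set a minimum number of reads, but the lists hold no read totals, so no depth can be given per library, and the number of peaks in a list can move with depth. The 2 untreated libraries have labels and deposited names that disagree on which Smad was tagged. Membership needed the absence from both, so it does not turn on which is which, but the 2 libraries are named only by their labels.

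Smad3 is a transcription factor that receptor kinases phosphorylate when TGFβ binds, after which it enters the nucleus with Smad4. Its MH1 domain contacts DNA directly, at the Smad box CAGAC and at GC-rich sites with the core GGCGC, whereas the main form of Smad2 carries an insert in that domain that hinders DNA contact. Alu elements are short interspersed repeats derived from the RNA of the signal recognition particle, and L1 elements are long interspersed repeats whose 5′ end carries an internal promoter. Both are spread through the human genome in many near-identical copies, and reads from young copies are hard to assign to 1 place.

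Of the 62268 LAP-Smad3 peaks, 6604 (10.6%) overlapped a LAP-Smad2 peak after TGFβ-1, 4518 (7.26%) a peak of the library labelled LAP-Smad2 untreated and 683 (1.10%) a peak of the library labelled LAP-Smad3 untreated. These shares depend on the numbers of peaks in the lists. The peaks outside the Smad3-only sites fell into 4387 that were shared with LAP-Smad2 after TGFβ-1 and with no untreated list, called shared sites here, and 4882 that were also in an untreated list. At the threshold, 238 Smad3-only sites lay less than 50 bp from a peak of another list, the closest directly beside it, and 319 excluded peaks overlapped one by no more than 50 bp, down to 1 bp. The median gap between a Smad3-only site and the nearest peak of another list was 19512 bp, and 3482 sites (6.57%) had one within 1 kb. The Smad3-only sites were 200 to 4362 bp wide, with a median of 233 bp. Their fold enrichment over the local background, as the authors' peak caller gave it, had a median of 4.97 and ranged from 1.76 to 15.4. Their −log10 q ranged from 1.31 to 57.1 with a median of 4.40, and the lower end lies at the authors' q-value cut-off of 0.05. The site nearest to that cut-off was chr5:27207090-27207292, with a fold enrichment of 2.29.

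The sequence that recurs most among the Smad3-only sites was that of a single repeat. When the 200 bp around the centre of each site were read from hg38 and the most common overlapping 24-mers were joined, the walk gave an element of 281 bases followed by a run of A, which is the sequence known as Alu. It underlies the largest recurrent group of sites. The 3 most common 20-mers of all windows are stretches of it. They occurred in 10917, 10338 and 10069 windows, with 1 chromosome left out of this search, and in 277234, 297567 and 270388 places on the 23 chromosomes of hg38. The assembled element matched RN7SL1, a gene of the RNA from which Alu elements derive, with 86.8% identity over 76 aligned positions at bases 136 to 211 and 93.0% over 43 positions at bases 239 to 281.

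A walk over the windows without an Alu match gave 789 bases that belong to the 5′ end of L1. On the strand shown here, the 5 kb that followed the windows of these sites held 39.8% A and 21.2% T, against 31.6% A and 30.2% T in the 5 kb before them. An A-rich strand after the 5′ end is a known property of L1. The strand shown was itself chosen as the one with the larger excess of A over T in the 5 kb that follow. The direction of this contrast was therefore fixed by the choice, and it is no separate support for the name. Its most common 24-mer lay at bases 462 to 485 and occurred in 875 windows of the same chromosomes and 3715 times in hg38. It is shown because it is the stretch most often found in these sites. The 789 bases hold 9 matches to CAGAC.
Most common L1 24-mer: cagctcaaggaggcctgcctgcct
The repeats are named from their known sequence, and no repeat annotation was used. Because both were assembled from the Smad3-only windows themselves, their shares describe these sites first, and the same alignment was then run on the other peaks and on 291113 windows placed every 10 kb in hg38. A window counted as a member of a family when at least 50% of its bases aligned to the element.

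Alu elements made up 20109 of the 52999 Smad3-only sites, or 37.9% (37.5% to 38.4%). The share was 17.1% of the 16869 Smad2-only sites, which were defined in the same way from the LAP-Smad2 list, and 9.22% of the hg38 windows. The difference from the Smad2-only sites was 20.9 percentage points (20.2 to 21.6) and had this direction on 23 of 23 chromosomes. Among the shared sites the Alu share was 40.8%, and the Smad3-only share was 2.81 points lower, a difference of −2.81 (−4.33 to −1.31) seen on 15 of 23 chromosomes. Alu windows were thus slightly more frequent where LAP-Smad2 was also called, and less frequent in the Smad2-only sites.

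The L1 group separated the Smad3-only from the Smad2-only sites further. It held 3534 Smad3-only sites, or 6.67% (6.46% to 6.88%), against 58 of the Smad2-only sites, or 0.344% (0.266% to 0.444%), and 0.213% of hg38 windows. The Smad3-only share was 19.4 times the Smad2-only share and 31.3 times the hg38 share, and was higher on 23 of 23 chromosomes in both comparisons. The shared sites, where LAP-Smad2 was also called after TGFβ-1, held 508 L1 windows, or 11.6%, so the LAP-Smad2 list did not lack L1. By the rule, LAP-Smad2 peaks at these sites could not count as Smad2-only, so the ratio of 19.4 depends on that exclusion. The Smad3-only minus shared difference was −4.91 points (−5.91 to −3.97), on 21 of 23 chromosomes. In contrast, 7 of the 4882 LAP-Smad3 peaks that were also in an untreated list were L1 windows, a share of 0.143%, although 42.3% of them were Alu windows. A further 304 Smad3-only sites (0.574%) and 117 sites (0.221%) belonged to 2 other repeated sequences that are left unnamed. The remaining 28935 sites, 54.6%, belonged to none of the 4 families.

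**Figure D1:**
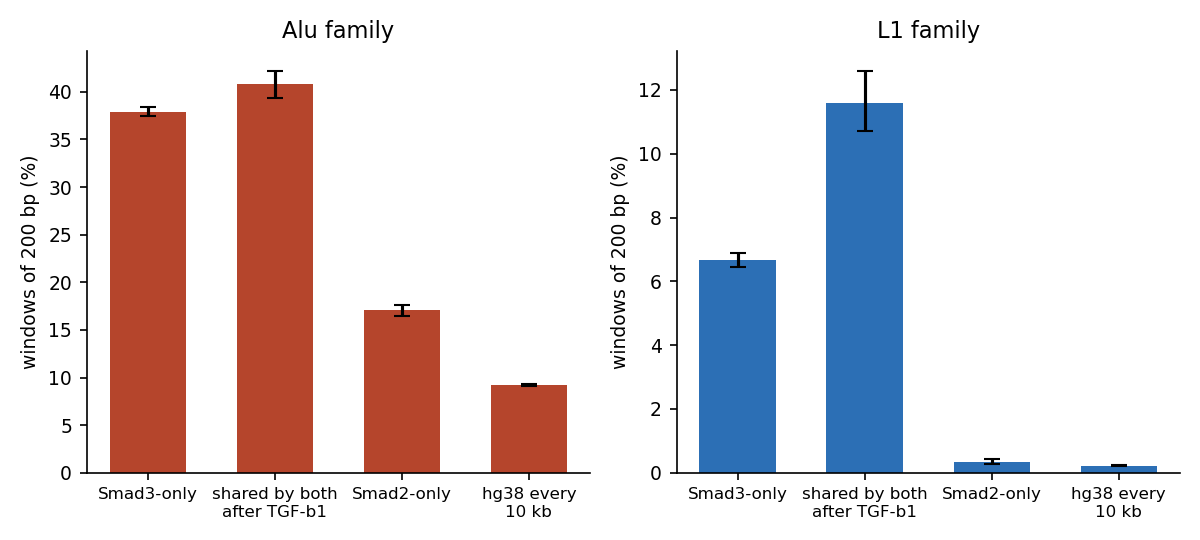
Share of 200 bp windows in the Alu family (left) and the L1 family (right), in percent, for Smad3-only sites, sites shared by both Smads after TGFβ-1, Smad2-only sites and hg38 windows every 10 kb, with Wilson 95% intervals for counting error as bars. Both families are frequent in the Smad3-only (37.9% and 6.67%) and shared sites, and L1 windows are nearly absent from the Smad2-only sites (0.344%).

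The copies called were those closest to the assembled element. In the Alu windows of Smad3-only sites the best alignment had a median identity of 93.6%, against 84.7% in the Alu windows of hg38. An identity of at least 95% was found in 34.6% of the former and 2.91% of the latter, while 7.32% and 52.6% were under 85%. The L1 windows behaved likewise, with a median identity of 96.0% against 89.6%, and 62.9% against 31.1% at 95% or more. The Alu windows of Smad3-only sites also held more CpG dinucleotides, with a mean of 9.62 a window against 4.36 in hg38 Alu windows. CpG was counted over the whole window, and the bases beside the element were not matched between the groups. Since the element was assembled from these sites, part of the closeness in identity is built into the measure. The identity in the Alu windows of Smad2-only sites, from which nothing was assembled, was 93.9%.

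The middle 50 bases of a window occurred only once in hg38 in 57.2% of Smad3-only sites, 77.1% of Smad2-only sites, 38.1% of shared sites and 90.2% of hg38 windows. Within the Smad3-only sites this held for 79.0% of the windows outside the families, 29.9% of the Alu windows and 35.8% of the L1 windows. The middle of a typical Alu window had 11 copies (median), and 6425 of the 20109 had over 100 copies. How the authors' alignment placed reads that fit several copies is not given in the sources used here, and its part in these calls was not tested. Among the 30315 Smad3-only sites whose middle 50 bases were found once, 19.9% (19.4% to 20.3%) were Alu windows, against 8.20% of the Smad2-only sites and 7.47% of the hg38 windows that met the same condition. For L1 the 3 values were 4.17% (3.95% to 4.40%), 0.177% and 0.141%. The share of both families was thus lower among sites that could be placed by their middle bases, and the direction of both comparisons was kept.

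Summits did not fall evenly along either element. Of the 19537 Alu windows in which the summit lay on the alignment, 32.3% had it at bases 101 to 150 and 35.7% at bases 151 to 200, against 18.5% and 18.9% of hg38 window centres. Bases 1 to 50 held 2.61% of summits and 15.9% of the hg38 centres. The Alu summits of Smad2-only sites lay at a similar place, with 28.0% at bases 101 to 150 and 37.2% at bases 151 to 200. On L1, the stretch at bases 201 to 300 held 5.74% of the 2752 summits (hg38, 11.3%), while bases 401 to 500 held 19.3% (hg38, 13.1%). In the Smad2-only sites, 26 of 57 L1 summits, 45.6% (33.4% to 58.4%), lay at bases 101 to 200, where 14.0% of the Smad3-only ones were. The matches to GGCGC in the Alu element start at bases 6, 152, 153 and 237 and AGGTCA starts at base 66, so that the share of summits was above that of hg38 centres around bases 152 and 153 and below it around the other matches. The windows themselves were centred on the peaks, and a peak of 200 bp or more within an element of 281 bases has its centre away from the ends.

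**Figure D2:**
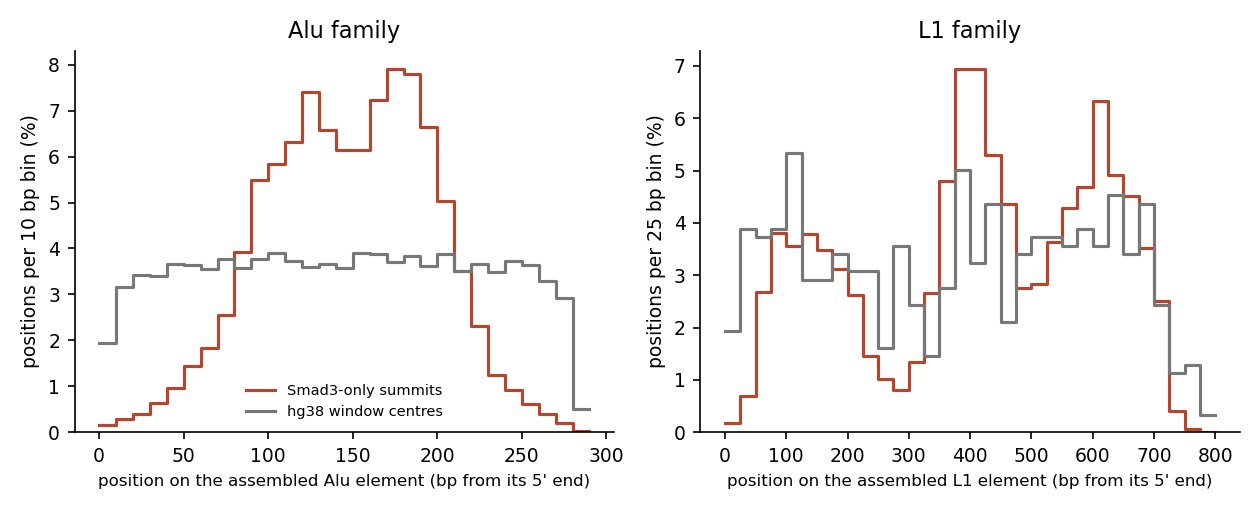
Position of the summit of Smad3-only sites (red) and of the centre of hg38 windows (grey) along the assembled Alu element (left, bins of 10 bp) and L1 element (right, bins of 25 bp), in percent of the positions that fell on the alignment. Alu summits gather between bases 101 and 200 (32.3% and 35.7% per 50 bp), while hg38 centres are spread more evenly.

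In protein-coding introns, 46.2% (45.1% to 47.2%) of 9369 Alu windows in Smad3-only sites lay on the strand of the gene, against 44.6% of Alu windows in hg38. For L1 the share on the gene's strand was 31.4% (28.9% to 34.0%) of 1243, against 29.6% (23.5% to 36.5%) in hg38. Smad3-only sites thus had nearly the orientation of the elements around them, with overlapping intervals for L1 and a gap of less than 2 percentage points for Alu.

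Smad3-only sites had a narrow range of GC content, as the shared sites did, between that of the genome and that of the Smad2-only sites. Their windows had a mean GC content of 58.1% (SD 4.73, n = 52999), the hg38 windows 40.9% (SD 9.36) and the Smad2-only sites 64.5% (SD 9.87). The shared sites had 61.5% (SD 4.83, n = 4387), with 74.9% of their windows from 55% to 65% GC. In all, 3.96% of Smad3-only windows were under 50% GC and 0.702% over 70%, whereas 27.5% of Smad2-only windows were over 70%, a difference of −26.8 points (−27.5 to −26.1) with this direction on 23 of 23 chromosomes. The range from 55% to 65% held 72.6% of Smad3-only windows, 34.6% of Smad2-only windows and 6.50% of hg38 windows. The windows outside the families had a mean of 60.1%, the L1 windows 57.9% and the Alu windows 55.2%. The hg38 Alu windows had 49.8%, so the called Alu windows were the more GC-rich ones. Bases beside the element count in both and were not matched. GC content also sets how well fragments are amplified and sequenced, and its part in the calls was not tested.

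**Figure D3:**
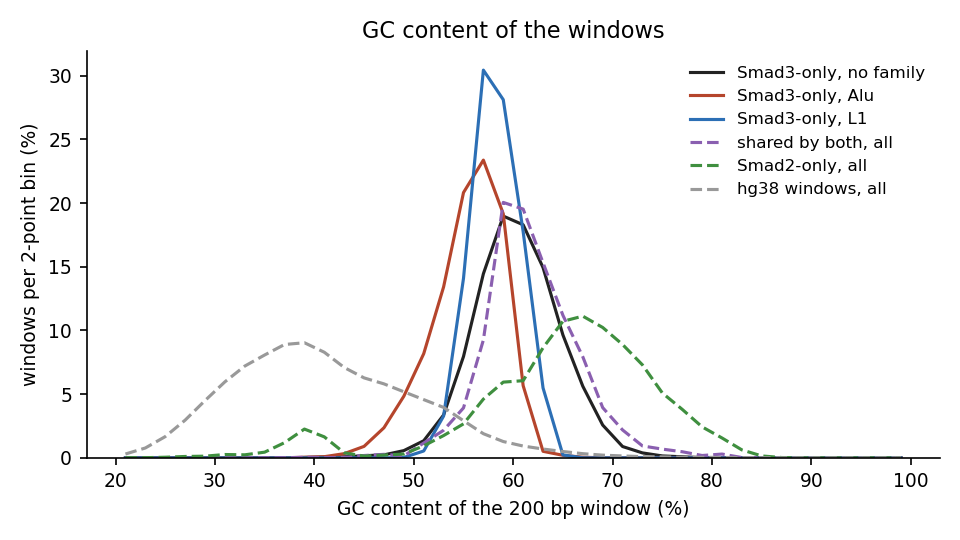
GC content of 200 bp windows, in bins of 2 percentage points (x axis) and percent of the windows of each group (y axis). Smad3-only sites, whether Alu, L1 or without a family, lie in a narrow band (72.6% between 55% and 65%), between the hg38 windows (mean 40.9%) and the Smad2-only sites (mean 64.5%), and the shared sites lie in a band as narrow (mean 61.5%).

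The nuclear receptor motif AGGTCA, searched on both strands as all motifs here, was in 27.6% (27.3% to 28.0%) of Smad3-only windows, 14.0% of Smad2-only windows and 12.4% of hg38 windows. The difference from the Smad2-only sites was 13.6 points (12.9 to 14.2), on 23 of 23 chromosomes. That from the shared sites was smaller, 4.64 points (3.31 to 5.92), on 20 of 23 chromosomes. Of the LAP-Smad3 peaks also in an untreated list, 26.6% (25.3% to 27.8%) held the motif, an interval that overlaps that of the Smad3-only sites. Alu windows were 79.9% of the shared windows with AGGTCA and 90.6% of those also in an untreated list. Of the 14648 Smad3-only windows with AGGTCA, 10323 (70.5%) were Alu windows, and the motif stands in the assembled Alu element at bases 66 to 71. Outside the families, 13.7% of the Smad3-only windows held AGGTCA. With GC content limited to 55% to 65% outside the families, the share was 14.2% (13.8% to 14.7%) in Smad3-only windows, 14.2% (13.6% to 14.7%) in hg38 windows and 11.0% (10.0% to 12.1%) in Smad2-only windows. Within this GC range and outside the families, AGGTCA was thus as frequent in hg38 as in the Smad3-only sites, and the Smad2-only windows had it less often. In this and the other comparisons limited to the range, GC content inside it was not matched between the groups.

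The Smad box CAGAC was in 34.2% of Smad3-only windows, 32.5% of Smad2-only and 28.2% of hg38 windows. The shared sites had more, 40.6%, a Smad3-only minus shared difference of −6.36 points (−7.87 to −4.86) on 19 of 23 chromosomes. The Smad box was scarce in Alu windows (8.88%), frequent in L1 windows (93.7%, against 83.9% of L1 windows in hg38), and present in 44.5% of the windows outside the families. In the latter with GC content from 55% to 65%, it was in 45.5% (44.8% to 46.1%) of Smad3-only windows and 45.9% (45.1% to 46.7%) of hg38 windows. The palindrome GTCTAGAC, in which the Smad box core faces its mirror copy, was in 30 of 52999 windows, or 0.0566% (0.0397% to 0.0808%), against 0.115% of hg38 windows. Outside the families at 55% to 65% GC it was in 26 windows, 0.114% (0.0777% to 0.167%), against 0.103% (0.0636% to 0.168%) in hg38. GGCGC was in 39.9% of Smad3-only windows, 6.0% of hg38 windows, 57.6% of Smad2-only windows and 60.1% of shared windows, and was lower than in the shared sites on 23 of 23 chromosomes. Alu windows supplied 64.7% of the 21126 windows with it, and in windows outside the families with 55% to 65% GC it was in 18.5% (18.0% to 19.1%) of Smad3-only, 15.7% (15.1% to 16.3%) of hg38 and 34.4% (32.9% to 36.0%) of Smad2-only windows.

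The remaining motifs were compared outside the families at 55% to 65% GC. The AP-1 motif TGANTCA was in 4.56% of Smad3-only and 4.16% of hg38 windows, the E-box CANNTG in 72.0% and 71.1%, its form CAGCTG in 21.1% and 20%, and the steroid receptor motif AGAACA in 10.3% of each. The FOXH1-type motif AATNCACA was in 1.44% and 1.66%, the RUNX-type motif TGTGGT in 13.2% and 13.7%, and the CRE TGACGTCA in 0.197% and 0.161%. For 3 of these motifs the intervals did not overlap. The ETS motif CCGGAAG was in 2.30% (2.12% to 2.51%) of Smad3-only and 1.78% (1.59% to 2.00%) of hg38 windows, the GC box GGGCGG in 13.1% (12.7% to 13.6%) and 11.6% (11.1% to 12.1%), and the TEAD-type motif GGAATG, which was less frequent in Smad3-only windows, in 10.3% (9.92% to 10.7%) and 11.7% (11.2% to 12.2%). Of the 14 motifs, GGCGC had the largest gap in points between these Smad3-only windows and hg38 windows in the same GC range, the 18.5% and 15.7% given above. Smad2-only windows of this kind had the GC box in 20.3% and TGANTCA in 2.56%.

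Most Smad3-only sites lay in introns. By the centre of the peak, 55.2% (54.8% to 55.6%) were intronic, 31.4% intergenic, 4.43% in coding exons, 3.31% in untranslated parts of coding transcripts and 5.70% in other exons. The intronic share of hg38 windows was 55.4%, and the difference of −0.211 points had an interval from −0.672 to 0.249. Coding exons held 1.21% of hg38 windows and 13.2% of Smad2-only sites, so the Smad3-only share lay between them. An annotated transcript start was within 3 kb of 33.6% (33.2% to 34.0%) of Smad3-only sites, 18.2% of hg38 windows, 49.9% of Smad2-only sites and 32.2% of shared sites. The difference from the Smad2-only sites was −16.3 points (−17.2 to −15.5), on 23 of 23 chromosomes, while that from the shared sites, 1.34 points (−0.114 to 2.77), had an interval that included 0. For starts of protein-coding transcripts the shares were 14.8% of Smad3-only and 33.6% of Smad2-only sites.

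The families differed in their location. Of the sites outside the families, 45.0% were within 3 kb of a start and the median distance was 3840 bp. Of the Alu sites, 21.9% (21.3% to 22.4%) were, against 22.7% (22.2% to 23.2%) of all Alu windows in hg38, and of the L1 sites 9.03% (8.13% to 10.0%), against 8.55% (6.59% to 11.0%). By the share within 3 kb, Alu and L1 sites were thus about as close to starts as these repeats are in general. By the median distance the Alu sites lay further out, at 9949 bp against 8831 bp for Alu windows in hg38. The L1 medians were 23711 bp and 22078 bp. Within 1 kb of a start the Alu direction was the opposite, with 8.49% of the Alu sites and 7.81% of the hg38 Alu windows. At 55% to 65% GC outside the families, 44.3% (43.6% to 44.9%) of Smad3-only sites and 38.1% (37.4% to 38.9%) of hg38 windows were within 3 kb of a start, which leaves a smaller gap than the 33.6% and 18.2% over all windows. Smad2-only sites in that GC range reached 45.5% (43.9% to 47.1%), and leaving out the families alone gave 45.0% against 56.0% (55.2% to 56.8%). Other measures kept a gap in this GC range. Within 1 kb of a start were 26.3% (25.7% to 26.9%) of Smad3-only and 32.2% (30.7% to 33.8%) of Smad2-only sites, within 3 kb of a protein-coding start 20.4% and 23.4%, and in coding exons 8.12% and 17.9%.

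**Figure D4:**
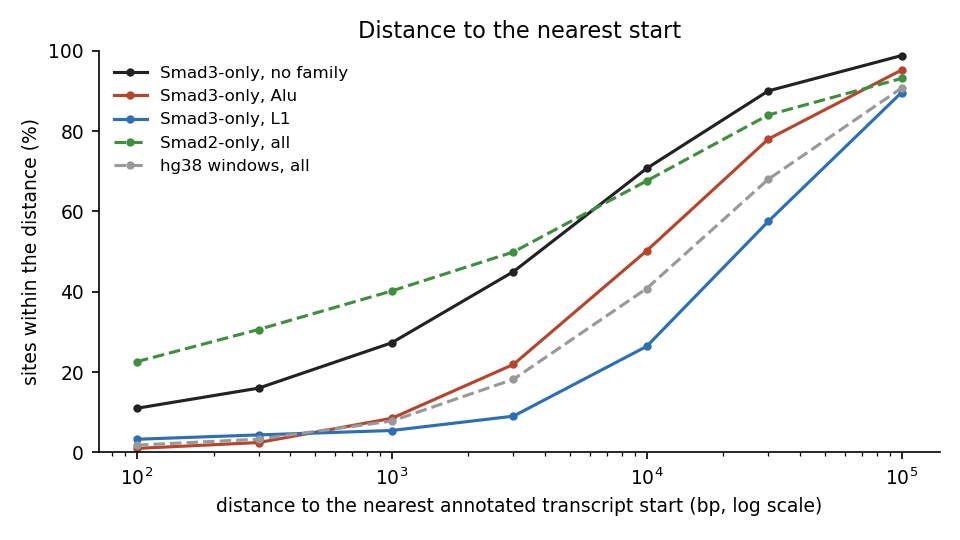
Share of sites within a given distance of the nearest annotated transcript start (x axis, bp, log scale; y axis, percent). Within 3 kb lie 45.0% of Smad3-only sites without a family, 21.9% of the Alu sites and 9.03% of the L1 sites, against 49.9% of Smad2-only sites and 18.2% of hg38 windows.

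Where a start was within 3 kb, the nearest belonged to a protein-coding gene in 59.7% of 17793 sites, to a long non-coding RNA in 21%, to a pseudogene in 13.4% and to another class in 5.91%. In the 8419 Smad2-only sites near a start, these shares were 72.2%, 15.9%, 9.13% and 2.79%. In hg38 windows near a start they were 54.9%, 22.4%, 15.3% and 7.47%, and in the shared sites 54.8%, 21%, 18.2% and 5.94%, so that the protein-coding share of the Smad3-only sites was closer to these than to that of the Smad2-only sites. The 319 L1 sites near a start were most often next to a long non-coding RNA (42.3%, 37.0% to 47.8%) and to a protein-coding gene in 31.7%.

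The composition changed with the peak score. Below a −log10 q of 3, 50.5% of 7194 sites were Alu windows, and from 3 to 5, 33.3% of 27927 sites were. From 5 to 8 the Alu share was 41.6% of 14689 sites, and at 8 or more it was 33.6% of 3189. The Alu share thus did not fall steadily. The L1 share rose through these ranges, with 3.34%, 5.59%, 8.18% and 16.7%. The share near a start stayed between 31.9% and 34.7% in all score ranges. From the lowest range to the highest, the share of sites whose middle 50 bases were found once was 57.6%, 63.8%, 50.2% and 30.4%. Even outside the families, 14.9% of windows below 3 and 55.3% at 8 or more had a repeated middle, so that the highest scores were mostly at duplicated sequence.

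Density differed between chromosomes, with 18.2 sites per Mb of known sequence over all. Chromosome 17 had 38.0, chromosome 22 had 32.6, chromosome 19 had 32.4 and chromosome 20 had 30, whereas chromosome 18 had 10.2 and X had 10.6. The spread came mainly from sites outside the families, from 2.01 per Mb on X to 26.4 on chromosome 17, while Alu sites ranged from 5.44 on chromosome 4 to 12.8 on chromosome 19. L1 sites were most dense on X (1.76) and chromosome 4 (1.72) and least on chromosome 17 (0.314). The copy number of the chromosomes of MDA-MB-231 scales the reads of a region and was not measured here. The median 1 Mb bin with a site had 11.0, and the fullest, on chromosome 20 from 62000001 to 63000000, had 205, of which 199 were outside the families. Next came chromosome 9 from 134000001 to 135000000 with 175 sites, the first 1 Mb of chromosome 5 with 170 and chromosome 11 from 69000001 to 70000000 with 167.

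**Figure D5:**
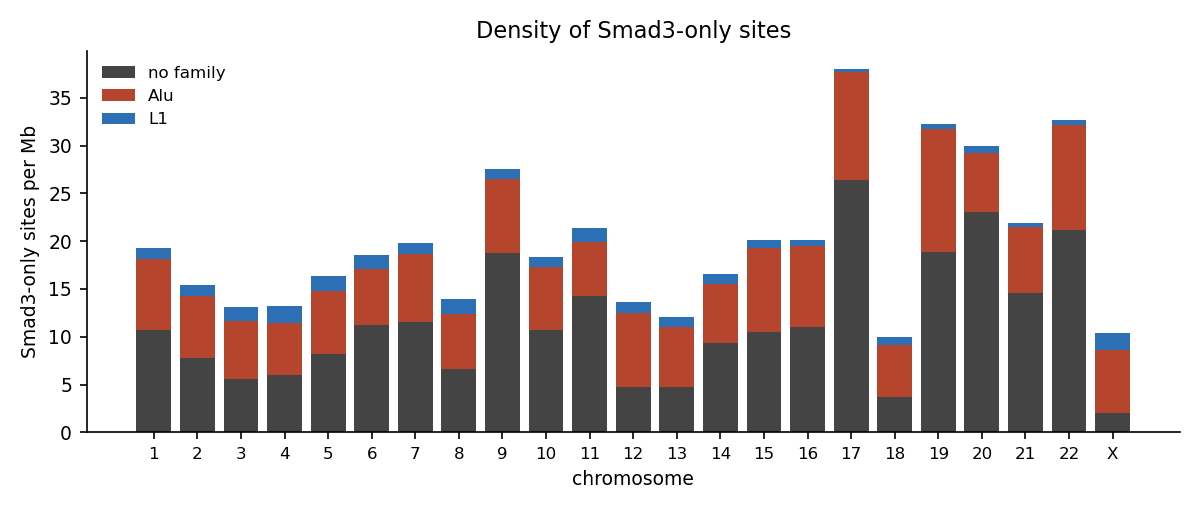
Smad3-only sites per Mb of known sequence on each chromosome (y axis), split into sites without a family (grey), Alu sites (red) and L1 sites (blue). The sites without a family range from 2.01 per Mb on X to 26.4 on chromosome 17, and the L1 sites are most dense on X (1.76).

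The gene SMAD3 itself is on the BAC, so that signal of the added copies and of the native locus cannot be told apart there. The gene spans chr15:67063763-67195173, and in this span widened by 100 kb there were 52 Smad3-only sites, or 157 per Mb, and 51 of them belonged to no family. They lay between 67052844 and 67193456 and had a median −log10 q of 8.57. They are left out of the single sites and genes named here. Without them 33.5% of the sites were within 3 kb of a start, 27.7% of windows held AGGTCA and 45.4% belonged to a family.

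Among the 10 sites with the highest −log10 q outside that locus, 7 were on chromosome 21 between 8202181 and 8469780, in the repeated ribosomal RNA gene region, where 133 LAP-Smad3 peaks lay in all and 15 were Smad3-only. The first was chr21:8430956-8431340, with a fold enrichment of 4.27 and a −log10 q of 57.1. The other 3 were chr5:17587323-17588378, 1565 bp from the nearest start of TAF11L7, a site in an exon of the pseudogene REXO1L3P, and chr4:49315730-49316191, more than 300 kb from CWH43. Their fold enrichments were 13.8, 12.4 and 10.5, and their middle 50 bases had 13, 15 and 1 copies in hg38. The highest sites were thus mostly in multicopy sequence.

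For sites in sequence found once, the highest near a protein-coding start and the highest in introns further away are shown. They are the highest within these classes, outside the families, that could be placed by their middle bases, with 1 chromosome left out. The intergenic site chr4:49315730-49316191 scored higher, with a −log10 q of 34.8, but belonged to neither class. All windows are from hg38, plus strand, and capitals mark CAGAC, the GC-rich core and the nuclear receptor motif on either strand. Windows that touch an annotated UTR were passed over.
Intron of SAP30BP, chr17:75693646-75693845: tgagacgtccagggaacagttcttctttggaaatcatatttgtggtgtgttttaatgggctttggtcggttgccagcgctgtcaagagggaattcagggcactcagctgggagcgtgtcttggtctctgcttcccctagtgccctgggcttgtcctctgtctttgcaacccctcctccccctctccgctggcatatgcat
Coding exon of SFXN2, chr10:102729282-102729481: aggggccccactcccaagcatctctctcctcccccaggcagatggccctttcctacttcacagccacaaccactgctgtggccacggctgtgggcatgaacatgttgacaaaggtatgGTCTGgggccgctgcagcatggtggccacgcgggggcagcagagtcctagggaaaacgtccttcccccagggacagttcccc
Intron near GPR137B, chr1:236159775-236159974: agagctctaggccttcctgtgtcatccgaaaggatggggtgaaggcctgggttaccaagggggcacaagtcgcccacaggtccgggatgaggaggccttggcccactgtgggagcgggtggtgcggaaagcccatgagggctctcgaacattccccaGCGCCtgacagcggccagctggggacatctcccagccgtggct
Intron near MMEL1, chr1:2659899-2660098: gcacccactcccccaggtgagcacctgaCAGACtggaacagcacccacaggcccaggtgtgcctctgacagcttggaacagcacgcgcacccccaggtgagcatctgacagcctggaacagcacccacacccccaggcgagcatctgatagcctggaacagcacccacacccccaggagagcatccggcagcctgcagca
The peak at SAP30BP lay 945 bp from its start and had a fold enrichment of 11.1 and a −log10 q of 17.3. The peak at SFXN2, 2714 bp from a start of this mitochondrial transporter gene, had 10.0 and 16.1. The peak named by GPR137B, its nearest protein-coding gene by start, was 8668 bp from that start (11.6 and 17.6). The peak named in the same way by MMEL1 was 26524 bp from the start (9.14 and 15.6). It lay within the span of another gene, TTC34 (chr1:2636986-2801693). The SAP30BP window held none of the 3 motifs and the MMEL1 window is made of a short imperfect unit repeated side by side, while the SFXN2 and MMEL1 windows each held 1 CAGAC match and the GPR137B window 1 GGCGC match.

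Of 19970 protein-coding genes, 14064 had a Smad3-only site in their span widened by 10 kb, which is 70.4%, and 7417 had one within 3 kb of an annotated start, which is 37.1%. These are the background for all gene counts that follow. The share rose with length, from 55.1% of genes of up to 10 kb to 90.7% of those over 100 kb, and the share with a site at a start was 30.6% and 39.7%. The median gene had 1 site.

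PTPRN2, a phosphatase-like protein of secretory granules, had the most sites, 106, over a span of 1049 kb, of which 105 were outside the families and 2 within 3 kb of a start. SORCS2, a sorting receptor, followed with 88 sites, and COL5A1, a fibrillar collagen chain, with 65 in 203 kb, a density of 29.1 per 100 kb against 2.52 over all protein-coding genes. CDH4, a cadherin, had 53 sites, MAD1L1, a spindle checkpoint protein, 51, RPTOR, a subunit of mTORC1, 49, and SHANK2, a synaptic scaffold, 49. The unnamed gene ENSG00000286192 overlaps MAD1L1 and had 52. In these 8 genes, 82.1% to 95.9% of the sites had a middle found once in hg38. CCDC200 (62 sites) and TTC34 (61 sites) differed, with 11.3% and 9.84%, so their sites lay mostly in sequence with several copies in hg38. All 10 genes had a mean GC content of 56.9% to 62.1% at their sites, and only COL5A1 and MAD1L1 had 8 or more sites within 3 kb of a start, 8 and 10.

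At 5 known target genes of TGFβ and related signals there were 0 to 2 Smad3-only sites each, with fold enrichments on both sides of the median of 4.97. ID1, an inhibitor of bHLH factors that TGFβ signalling regulates, had no Smad3-only site within 10 kb, nor had ID2, ID3 or ID4. These ID genes span 1.23 to 5.62 kb, and 55.1% of genes of up to 10 kb had a site. LAP-Smad3 peaks outside the Smad3-only sites were not counted at any of the genes named here. SMAD7, the inhibitory Smad that TGFβ itself turns on, had 2. The first, chr18:48949357-48949583, lay in an intron 24 bp from the nearest start, with a fold enrichment of 6.88 and a −log10 q of 7.26, and the other was an Alu copy of 96.7% identity. CCN2, a secreted matricellular protein, had 1 site, chr6:131950041-131950410, 962 bp from its start and over the start of the non-coding LINC01013, with 4.36 and 3.08. The 1 site at SKIL, a Smad co-repressor, was an Alu window of 80.5% identity, and the 1 site within 10 kb of JUNB, an AP-1 subunit, was an Alu window of 94.5% identity in an intron of the neighbouring HOOK2. The windows at SMAD7 and CCN2 are shown because they lie near the start of a known target and outside the families.
SMAD7, chr18:48949370-48949569: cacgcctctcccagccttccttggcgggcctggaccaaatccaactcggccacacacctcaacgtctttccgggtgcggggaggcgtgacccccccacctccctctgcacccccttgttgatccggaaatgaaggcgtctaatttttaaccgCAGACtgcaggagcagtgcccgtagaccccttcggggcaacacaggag
CCN2, chr6:131950126-131950325: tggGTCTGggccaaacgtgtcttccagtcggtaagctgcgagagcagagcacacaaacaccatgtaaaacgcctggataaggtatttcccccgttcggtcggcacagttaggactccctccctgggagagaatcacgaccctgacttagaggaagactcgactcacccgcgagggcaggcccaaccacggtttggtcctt
Both hold a CAGAC match and neither holds GGCGC.

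Other genes of the pathway are given as counts beside the background of 70.4% with a site in the widened span and 37.1% with a site at a start. Of the 10 negative feedback genes, 8 (80%) had a site and 6 had one at a start: PMEPA1, which sequesters receptor-regulated Smads, with 15 sites, the co-repressor SKI with 12, the ubiquitin ligase SMURF2 with 3, SMAD7, SKIL and 1 more. The SKIL site lay 1313 bp from an annotated start of SKIL but 22966 bp from its nearest protein-coding transcript start. A start counted here thus need not be that of a coding transcript. Of the 22 ligand and receptor genes, 18 (81.8%) had a site and 11 one at a start, among them LTBP2 (10 sites), LTBP4, LTBP1 and ENG, and 32 of their 64 sites were Alu windows. All 5 other Smad genes had a site, 2 of them, SMAD4 and SMAD5, at a start, and 7 of these 9 sites were Alu windows. Of the 14 early targets, 13 had a site and 6 one at a start, including the secreted matrix protein TGFBI. Of the 12 metastasis genes, 6 had a site and 4 one at a start (HBEGF, CCN2, EREG and TNC). None of the 10 cytostatic genes had a site at a start, although 7 had one in the widened span, and the cell cycle inhibitor CDKN1A had 3 sites. The lists are small, and their shares lie on both sides of the background.

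Among transcription factors, 14 of the 15 AP-1 genes had a site and 8 one at a start, including MAFG (10 sites), JUN, FOSL2 and ATF3, with a median span of 9.47 kb against 27.5 kb over all genes. Of the 48 nuclear receptor genes, 40 (83.3%) had a site and 19 (39.6%) one at a start. RXRA, a partner of many of them, had 41 sites, 9 of them at a start and all outside the families, and RARA had 8. Of the 74 bHLH genes, 38 (51.4%) had a site and 20 (27.0%) one at a start, including TFEB (19 sites) and ATOH8 (14). The median span was 6.15 kb for bHLH genes and 53.6 kb for nuclear receptor genes. Per 100 kb of the widened spans, bHLH genes had 2.56 sites and nuclear receptor genes 2.15, beside 2.52 over all genes. Of the 12 EMT factors, 8 had a site, but only TCF3 and SNAI3 at a start. All 8 MEF2 and class IIa HDAC genes had a site and 5 one at a start, and of the 16 Hippo genes 15 had a site and 6 one at a start, with STK3 at 11 sites, 5 of them L1 windows. Forkhead genes (35 of 52, 67.3%), HOX genes (19 of 39, 48.7%) and ZNF zinc finger genes (354 of 508, 69.7%) were at or below the background. Forkhead and HOX genes are short, with median spans of 5.93 and 4.22 kb and 2.26 and 3.48 sites per 100 kb. Of all genes of up to 10 kb, 55.1% had a site. In ZNF genes, 367 of 717 sites were Alu windows.

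Collagen, laminin, integrin and ADAMTS genes, which form or bind the extracellular matrix or cut it, were above the background in both counts, and their spans are long. Of the 44 collagen genes, 42 (95.5%) had a site and 28 (63.6%) one at a start, with a median span of 145 kb. Of their 299 sites, 247 were outside the families, and COL20A1 had 9 at a start, COL5A1, COL13A1 and COL9A3 8 each. All 12 laminin genes had a site and 8 one at a start, including LAMA5 with 15 sites. Of the 27 integrin genes, 24 (88.9%) had a site and 14 one at a start, including ITGB2 with 11 sites, and of the 19 ADAMTS genes 17 (89.5%) and 10. Matrix metalloproteinases were lower, with 11 of 23 (47.8%) and 5 at a start. Per length of the widened spans, collagens had 3.95 sites per 100 kb, laminins 3.01, ADAMTS genes 2.55, integrins 2.36 and metalloproteinases 1.71, beside 2.52 over all genes. The collagens thus had more sites for their length than all genes together, and the ADAMTS and integrin genes about as many. COL5A1 alone held 65 of the 299 collagen sites and lies in the bin of chromosome 9 from 134000001 to 135000000, which had 175 sites.

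Among other short genes, the clustered histones had a site in 48 of 69 (69.6%) and at a start in 32 (46.4%), and the cytosolic ribosomal protein genes in 53 of 80 (66.2%) and 30 (37.5%). Neighbouring genes of a histone cluster can share sites. Keratins had 28 of 55 (50.9%) and 17 at a start, including KRT17 with 8 sites, all outside the families. Olfactory receptor genes were the lowest, with 91 of 400 (22.8%) in the span and 29 (7.25%) at a start, and 79 of their 127 sites were Alu or L1 windows. All of these are counts from 1 list, with no test.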

How the data were processed

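ChIP-seq peaks of 4 libraries, 1 per condition, were used, each as a list with 1 row per peak. According to the submitters' notes, reads were handled with Bowtie2, MACS2 and bedtools on hg38. Per the study's methods, reads were extended to 200 bp and peaks kept at a q-value of 0.05. Versions, control library, read filters and the treatment of reads that fit several places are not given in the sources used here. For each peak the authors deposited a fold enrichment (a ratio), a −log10 p-value, a −log10 q-value and the summit's offset. These scores are not on a common scale between lists, and depth is unknown apart from the minimum that the study set.

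Smad3-only sites, windows of 200 bp around peak centres, GENCODE release 44 classes, motifs on both strands and copies of the middle 50 bases were computed from the lists and hg38. Elements were assembled from the windows by 24-mers and aligned with blastn 2.17.0 (E-value 1e-05, at least 50% of a window). Python 3.11.15, numpy 2.4.6, pandas 2.3.3, numba 0.67.0 and matplotlib 3.10.9 were used. On simulated data 11 of 11 checks passed. The reference marks no repeats, so the planned share of masked windows was replaced by the families.

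The members and gene lists were chosen with earlier results of these data known, and the families, identities and GC-limited comparisons after the data were seen. Named were the 10 genes with most sites, the 10 sites with the highest −log10 q, up to 4 genes of each list with a site at a start or else most sites, and ID1, SMAD7, SKIL, JUNB and CCN2. With 1 library per condition there was no test between conditions. Wilson 95% intervals cover counting error only. Some items that the rule names are not reported here.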

Additional observations from a re-analysis of the deposited data

How the results depend on the processing

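No paired analysis was possible because each condition had 1 library and no result comes from a test. A change is called a move here when the new value lies outside the counting interval of the first. The number of sites was within 1.5 times of 52999 under all settings but 2: it was 30315 with the middle 50 bases found once in hg38 and 17878 at a −log10 q of 5 or more. For these 2 sets the share within 3 kb of a start was 38.4% and 31.9% (33.6% at first), mean GC 58.9% and 58.1% (58.1%), the share of protein-coding genes with a site 55.9% and 38.8% (70.4%) and the share of windows in a family 24.6% and 50.8% (45.4%). AGGTCA was in 20.6% of windows in the first set (27.6%). With membership set by the LAP-Smad2 TGFβ-1 list alone, the same values were 33.1%, 58.0%, 71.6%, 45.9% and 28.1%. With no other peak allowed within 1 kb they were 32.4%, 57.9%, 68.5%, 47.0% and 28.4%. Counting as shared only mutual overlaps of at least 50% gave 58.2% GC, 71.7% of genes, 44.5% in a family and 26.8% with AGGTCA. Windows on the summit had 58.1% GC, and a q-value of at most 0.01 left 69.7% of genes. A distance of 1 kb gave 18.5% near a start, and protein-coding starts alone 14.8%. Gene spans alone gave 53.4% of genes and spans widened by 3 kb 60.5%. A coverage of at least 80% of the window gave 40.1% in a family, an alternative chosen, like all for the families, after seeing the data. Of 65 values in all, 20 stayed and 45 moved, and the causes were not tested. The planned share of masked windows was not run. With 1 library per condition, no value has a replicate error, and how many peaks the other lists missed for lack of depth was not tested.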
